A study of Mus musculus with 9 samples.

Results

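Cilp, Greb1, Slc7a2 and Cmklr1 are 4 of the 47729 genes counted in C2C12 cells, a line of mouse myoblasts, before and during their differentiation into myotubes. They were chosen by symbol because their read counts rose from day 0 to day 5 in control cells and stayed low in cells lacking Per1 or Per2, so their levels and differences along those contrasts are a description and carry no test. Of these 4 genes, 4 passed the low-count filter, which 13324 genes passed in all (at least 1 CPM, a count scaled by library depth, in at least 3 of the 9 libraries). The control population (WT) received a non-target guide RNA, and the knockout populations (Per1KO and Per2KO) had Per1 or Per2 disrupted with CRISPR-Cas9. All were kept in fetal bovine serum, sampled as myoblasts on day 0, and moved to horse serum and sampled again on days 3 and 5. Each population and day had 1 library, and the labels do not say whether a population was 1 clone. Whole muscle is the labelled tissue, whereas the growth protocol describes cultured C2C12 cells.

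The WT libraries held 5020385 to 6773320 counts and the knockout libraries 41997763 to 48051824. Only the WT titles carry a lane suffix, so wherever a knockout is compared with WT, genotype and depth or lane cannot be told apart. Of 5 myoblast markers, 5 were detected in every library. The summed level of 10 myotube markers was lowest on day 0 and highest on day 5 in each population. It ran from 774 to 20284 CPM in WT, from 120 to 13517 CPM in Per1KO and from 78.1 to 11011 CPM in Per2KO. Per1 was at 35.6, 33.8 and 31.01 CPM on days 0, 3 and 5 in WT and at 20.9, 32.4 and 28.9 CPM in Per1KO. Per2 was at 9.74, 11.5 and 20.5 CPM in WT and at 3.50, 9.13 and 8.38 CPM in Per2KO. A count per gene does not show a small edit, so these levels do not check the knockouts.

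The products of the 4 genes work at the cell surface, outside the cell and in the nucleus. Cilp encodes cartilage intermediate layer protein, a secreted matrix protein that binds TGF-beta and restrains its signalling. Greb1 encodes a nuclear cofactor best known as an early target of the estrogen receptor. Slc7a2 encodes a carrier for arginine and the other cationic amino acids, and Cmklr1 encodes the receptor for chemerin, a chemoattractant and adipokine. PER1 and PER2 are repressors of the circadian clock that act on the transcription factors CLOCK and BMAL1, which bind the E-box CACGTG.

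The sequences upstream of the start sites are shown because E-boxes of the form CANNTG are where both the clock factors and the myogenic factors bind. RefSeq's table on GRCm38.p6 held a promoter for 3 of the 4 genes. The 250 bases before the start are given 5′ to 3′ on the gene's own strand, with each CANNTG match in capitals, for Cilp (chr9:65264930-65265179, plus strand), Cmklr1 (chr5:113643604-113643853, minus strand, before a start that lies inside the longest gene model) and the more upstream of the Greb1 starts (chr12:16800887-16801136, minus strand).
Cilp: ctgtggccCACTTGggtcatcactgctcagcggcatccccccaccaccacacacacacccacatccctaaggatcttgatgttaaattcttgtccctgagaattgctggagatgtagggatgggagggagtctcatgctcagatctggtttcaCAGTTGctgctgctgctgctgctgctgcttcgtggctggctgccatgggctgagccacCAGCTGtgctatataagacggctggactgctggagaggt
Cmklr1: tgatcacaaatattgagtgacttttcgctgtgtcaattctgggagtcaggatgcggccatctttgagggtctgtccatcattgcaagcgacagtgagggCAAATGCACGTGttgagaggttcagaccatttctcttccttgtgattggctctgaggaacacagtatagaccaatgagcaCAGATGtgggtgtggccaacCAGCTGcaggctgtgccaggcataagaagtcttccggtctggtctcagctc
Greb1: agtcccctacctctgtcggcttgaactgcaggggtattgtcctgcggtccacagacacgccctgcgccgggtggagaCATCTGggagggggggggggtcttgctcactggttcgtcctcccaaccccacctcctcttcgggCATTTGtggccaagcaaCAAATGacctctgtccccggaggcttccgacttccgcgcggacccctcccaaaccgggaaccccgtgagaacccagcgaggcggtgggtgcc
The Cilp sequence held 3 CANNTG matches, the Cmklr1 sequence 4 and the Greb1 sequence 3, and 66.2% of 32851 such sequences held at least 1. CACGTG, searched on both strands and itself a CANNTG match, occurred once, in Cmklr1, with its first base at -145 from the start; 6.02% of the sequences held it. CAGCTG, also a CANNTG match, occurred in Cilp at -39 and in Cmklr1 at -51, against 13% of the sequences. AGGTCA, the core element of nuclear receptor sites, was also searched on both strands and occurred in the Greb1 sequence at -88 on the opposite strand, where the printed letters read tgacct; 14% of the sequences held it. The window before the other Greb1 start held 0 matches to it. TGANTCA and TATAAA were in none of these windows. These matches are letters in a sequence, and no binding was measured.

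Cilp (ENSMUSG00000042254, chromosome 9, 65265180 to 65280605, plus strand) had the largest WT rise of the 13324 tested genes. Its level in WT was 0.706 CPM on day 0 (5 counts), 301 CPM on day 3 (1648 counts) and 1401 CPM on day 5 (6371 counts). In Per1KO it was 0 CPM (0 counts), 3.60 CPM (174 counts) and 1.83 CPM (76 counts). In Per2KO it was 0 CPM (0 counts), 1.95 CPM (94 counts) and 2.24 CPM (92 counts). The WT libraries of days 3 and 5 stood far above the other 7, and the knockouts were detected only after day 0. The WT level on day 5 was 1984-fold that on day 0, with an exact 95% counting interval of 850 to 6113. The intervals here and below cover counting error only. Because both knockouts were at 0 on day 0, a floor of 3 counts per library was used for that day. Against this floor their day 5 levels were 30.0-fold (Per1KO) and 37.9-fold (Per2KO) higher. The exact 95% lower limits of the day 5 to day 0 ratios were 23.8 and 30.2. On day 5 WT was 767-fold above Per1KO (612 to 975) and 625-fold above Per2KO (509 to 777). On log2 CPM with a prior count of 2, which damps ratios to very low counts, these were the largest differences of any tested gene, at -9.54 and -9.25. Cilp was thus detected in the differentiating knockout cells, at a few CPM. In the order of levels, Per1KO on day 5 and Per2KO on days 3 and 5 did not differ from each other beyond counting error.

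Greb1 (ENSMUSG00000036523, chromosome 12, 16670615 to 16800886, minus strand) was the gene whose course ran in opposite directions. WT had 1.98, 38.5 and 84.4 CPM on days 0, 3 and 5 (14, 211 and 384 counts). Per1KO had 0.771, 0.373 and 0.0961 CPM (38, 18 and 4 counts). Per2KO had 0.827, 0.228 and 0.244 CPM (42, 11 and 10 counts). Every knockout library was below every WT library, and the knockouts were highest on day 0. The counting intervals of WT and Per2KO on day 0 overlapped, as did those of each pair of neighbours among the knockout levels. The WT level on day 5 was 42.7-fold that on day 0 (25.1 to 78.9). The knockout levels were 8.02-fold lower on day 5 than on day 0 in Per1KO (2.89 to 30.9) and 3.39-fold lower in Per2KO (1.68 to 7.59). On day 5 WT was 879-fold above Per1KO (340 to 3242) and 347-fold above Per2KO (186 to 729), although these rest on 4 and 10 knockout counts. On day 0 the same ratios were 2.57 (1.28 to 4.84) and 2.39 (1.21 to 4.47).

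Slc7a2 (ENSMUSG00000031596, chromosome 8, 40862396 to 40922308, plus strand) increased in all 3 populations from different starting levels. WT had 3.39, 38.5 and 88.8 CPM on days 0, 3 and 5 (24, 211 and 404 counts). Per1KO had 0.487, 2.44 and 3.29 CPM (24, 118 and 137 counts), and Per2KO had 0.571, 1.47 and 3.73 CPM (29, 71 and 153 counts). The knockout levels on day 5 overlapped the WT level on day 0 within counting error. From day 0 to day 5 the level became 26.2-fold higher in WT (17.4 to 41.4), 6.76-fold in Per1KO (4.36 to 10.9) and 6.53-fold in Per2KO (4.37 to 10.1). WT was above Per1KO by 6.96-fold on day 0 (3.79 to 12.8) and by 27.0-fold on day 5 (22.2 to 33.01). It was above Per2KO by 5.94-fold (3.31 to 10.6) and 23.8-fold (19.7 to 28.9) on those days.

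Cmklr1 (ENSMUSG00000042190, chromosome 5, 113612354 to 113650426, minus strand) was, like the other genes, already lower in the knockouts on day 0. The summed levels of myotube markers and of fibroblast markers were also lower in the knockouts than in WT on that day. A link between these was not tested. WT had 13.0, 48.7 and 71.9 CPM on days 0, 3 and 5 (92, 267 and 327 counts). Per1KO had 0.466, 2.79 and 3.15 CPM (23, 135 and 131 counts), and Per2KO had 0.197, 3.44 and 7.31 CPM (10, 166 and 300 counts). All 3 WT libraries were above all 6 knockout libraries. The day 5 level was 5.53-fold the day 0 level in WT (4.38 to 7.05), 6.75-fold in Per1KO (4.31 to 11.0) and 37.1-fold in Per2KO (19.9 to 78.2). WT exceeded Per1KO by 27.9-fold on day 0 (17.5 to 46.1) and by 22.9-fold on day 5 (18.6 to 28.2). It exceeded Per2KO by 66.0-fold (34.3 to 142) on day 0 and by 9.84-fold (8.39 to 11.5) on day 5, so the ratio to Per2KO was smaller on day 5.

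**Figure D1:**
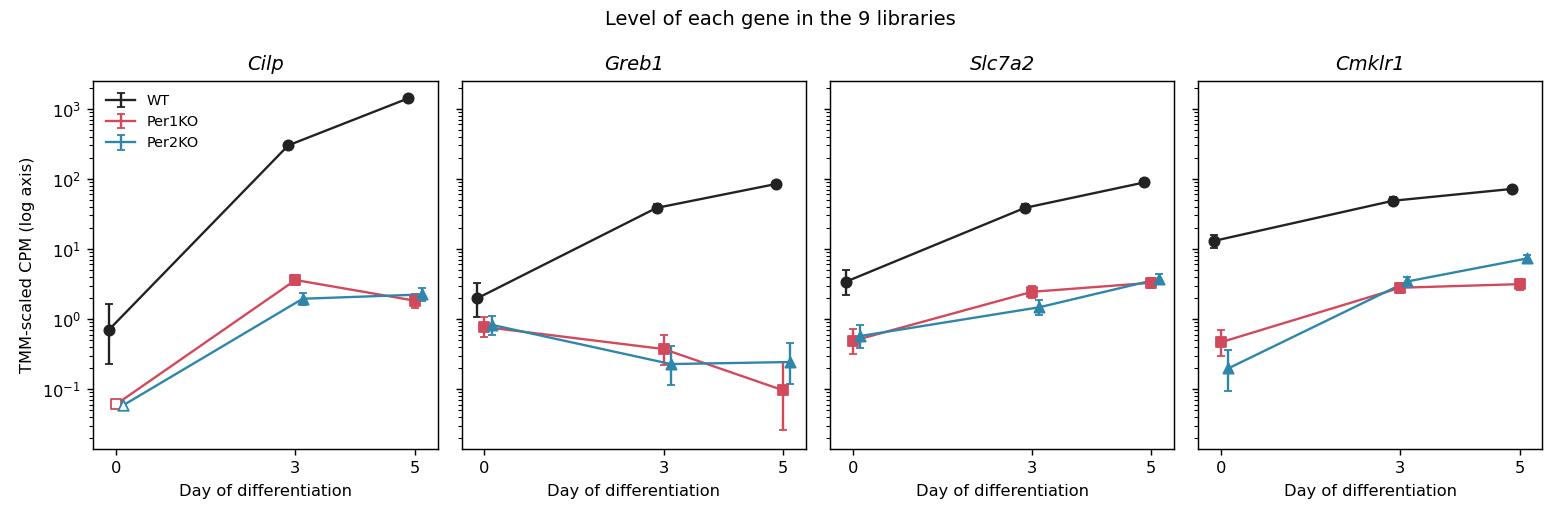
TMM-scaled CPM (log axis) of the 4 genes against day of differentiation in WT, Per1KO and Per2KO, 1 library per point, with exact 95% Poisson intervals on the count; open symbols are 0 counts drawn at the floor of 3 counts. WT Cilp reached 1401 CPM on day 5, while Greb1 in Per1KO ended at 0.0961 CPM.

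Set beside each other, the 4 genes shared the low knockout level but not the absence of a rise. On day 5 they were at least 2-fold lower in both knockouts, by the rule, where 7.83% of all tested genes were. The same held for all 4 on day 0 (6.68% of tested genes) and on day 3 (7.07%). These days are not independent of the rule, which asked that the knockouts stay low. For Cilp on day 0 it rests on 5 counts in WT and 0 in each knockout. From day 0 to day 5, Cilp, Slc7a2 and Cmklr1 were at least 2-fold higher in both knockouts and Greb1 in neither; 14.4% of tested genes were at least 2-fold higher in Per1KO, 13.7% in Per2KO and 12.5% in WT. The same split held on day 3, where 11.8%, 11.5% and 9.61% of tested genes were at least 2-fold above day 0. The description of genes raised in WT and not in the knockouts therefore held as worded for Greb1 alone. Per kilobase of exon, the WT levels on day 5 were 330 CPM for Cilp, 21.1 for Cmklr1, 9.73 for Slc7a2 and 8.81 for Greb1. In these bulk libraries, fewer cells of a type and less RNA per cell cannot be told apart.

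**Figure D2:**
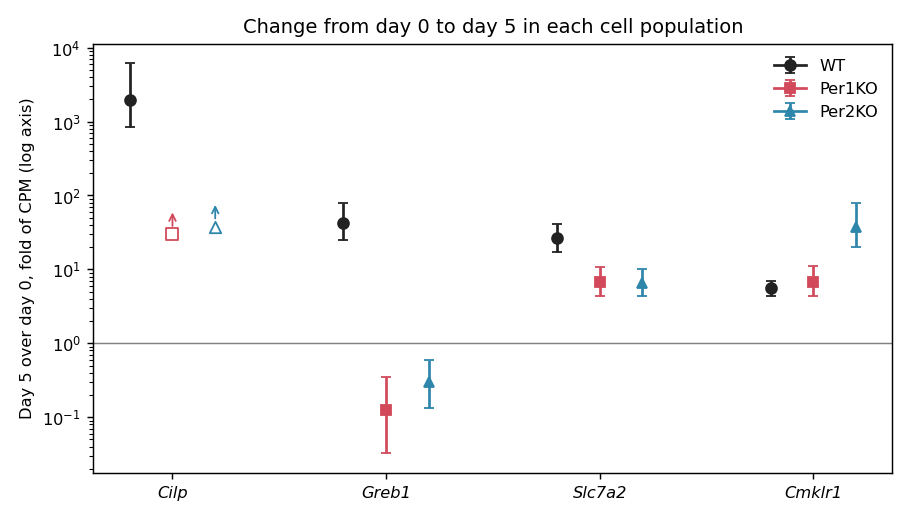
Fold of CPM on day 5 over day 0 (log axis) for each gene in WT, Per1KO and Per2KO, with exact 95% counting intervals. Open symbols with arrows take the floor of 3 counts for a day 0 count of 0. Greb1 lies below 1 in both knockouts, and Cmklr1 in Per2KO, at 37.1-fold, lies above Cmklr1 in WT, at 5.53-fold.

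The pattern was also counted over all tested genes. With WT on day 5 at 10 CPM or more and at least 8 times day 0, and both knockouts on day 5 at most an eighth of WT, 34 genes met it (0.255% of those tested). Cilp, Greb1 and Slc7a2 were among them, and Cmklr1 was not, since its WT rise was 5.53-fold. The 34 included Igf1, the growth factor that drives muscle hypertrophy. It had 1.55, 48.7 and 119 CPM on days 0, 3 and 5 in WT. On those days it had 0.0406, 5.38 and 6.44 CPM in Per1KO and 0.0197, 4.31 and 9.77 CPM in Per2KO. The pattern set no limit on a rise within the knockouts, and Igf1 rose in every population. Its day 0 levels in the knockouts were below the floor of 3 counts, so the size of those rises is uncertain.

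**Figure D3:**
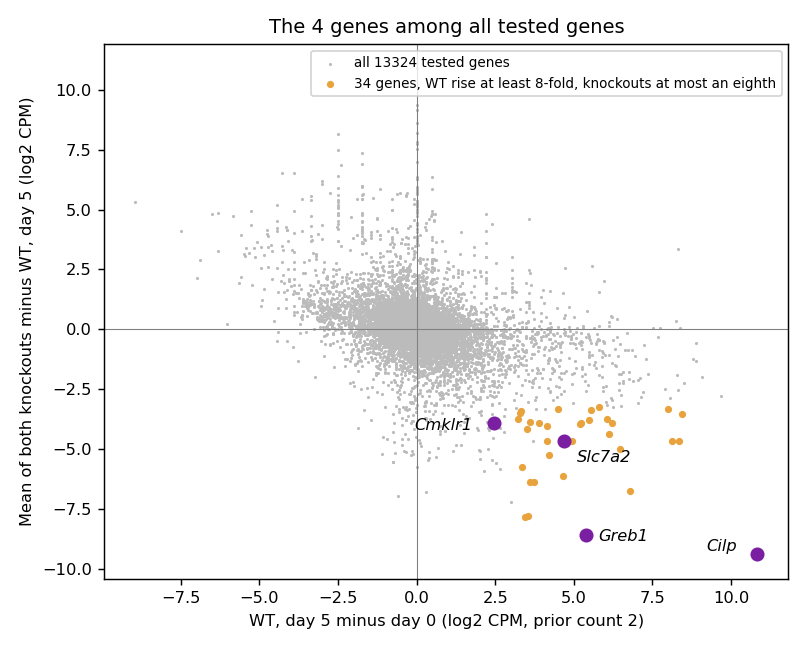
Each point is 1 of 13324 tested genes, with the WT difference between days 5 and 0 on the horizontal axis and the mean difference of both knockouts from WT on day 5 on the vertical axis (log2 CPM, prior count 2). Orange points are the 34 genes that met the pattern, and Cilp lies at the far lower right, at 10.84 on the horizontal axis.

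The choice of genes asked for low levels in both knockouts but did not compare Per1KO with Per2KO. A gene high in either knockout could not have been chosen. The lack of a difference in the 4 genes is therefore partly set by the choice. Over the 6 knockout libraries, with day as a factor, edgeR's quasi-likelihood test called 0 of 13324 genes (0%) at an adjusted p-value under 0.05; 621 (4.66%) had an unadjusted p under 0.05, and DESeq2 called 8. For Cilp the log2 difference, Per1KO minus Per2KO, was 0.33 ± 0.33 (SE; 95% interval -0.51 to 1.17; edgeR adjusted p = 0.854). For Greb1 it was -0.06 ± 0.39 (-0.99 to 0.87; edgeR adjusted p = 0.980). For Slc7a2 it was 0.15 ± 0.24 (-0.44 to 0.74; edgeR adjusted p = 0.898), and for Cmklr1 -0.49 ± 0.36 (-1.35 to 0.38; edgeR adjusted p = 0.839). None passed, and the intervals leave room for differences of up to 1.35 on the log2 scale. With 1 library per knockout and day, the days stood in for replicates. The SE and these intervals therefore reflect scatter between days. Greb1 passed the low-count filter only through its WT libraries. Its knockout libraries held 4 to 42 counts, all below 1 CPM, so its test rests on low counts. The sign changed without 1 day for each gene: Cilp was at -0.30 and Slc7a2 at -0.20 without day 3, Cmklr1 at 0.13 without day 5, and Greb1 at 0.02 without day 0 and 0.18 without day 5. In single pairs of libraries, where the intervals cover counting error only, 4 differences had an interval that left out 1. On day 3, Cilp was 1.85-fold (1.43 to 2.41) and Slc7a2 1.66-fold (1.23 to 2.26) higher in Per1KO. On day 5, Cmklr1 was 2.32-fold higher in Per2KO (1.88 to 2.87), and on day 0 it was 2.37-fold higher in Per1KO (1.08 to 5.58).

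The genes with the most similar course were found by Pearson's r of log2 CPM over the 9 libraries, among 10507 genes reaching 10 CPM in at least 1 library. These points share genotype, day and depth, so r is a description. It takes no account of how large a change is. Nearest to Cilp was Dpt (r = 0.990), which encodes the matrix protein dermatopontin and had 1.55, 78.6 and 143 CPM in WT against 3.10 and 6.16 CPM on day 5 in Per1KO and Per2KO; next came Plod2, B3galt5, Ldlrad4 and Gm13340. Nearest to Greb1 was Cdhr1 (r = 0.991), followed by Nrn1, Nkain1, Ddx49 and Ptpn5. Ptpn5, a tyrosine phosphatase, had 3.95, 35.9 and 43.8 CPM in WT and 0.649, 0.104 and 0.0961 CPM in Per1KO. Nearest to Slc7a2 was Dnajb2 (r = 0.991), with Tmem104, Pdgfrl and Atp1b2 also among the most similar. Dnajb2 moved far less than Slc7a2, with 63.3 and 105 CPM on days 0 and 5 in WT. It had 47.05 and 68.7 CPM on those days in Per1KO and 46.9 and 67.5 CPM in Per2KO. Nearest to Cmklr1 was Drp2 (r = 0.988), followed by Plekhg5, Hopx, Gm17936 and 2510009E07Rik. Among the 4 genes, r ran from 0.694 for Greb1 with Cmklr1 to 0.975 for Cilp with Slc7a2.

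The neighbours on the chromosome were examined because position was not part of the choice. Pdgfrl begins 3.9 kb beyond the end of Slc7a2 on the same strand. It had 9.32, 49.6 and 82.9 CPM in WT, 2.70, 9.30 and 13.4 CPM in Per1KO and 2.13, 7.66 and 12.6 CPM in Per2KO, so it too was highest in WT on day 5. Its day 5 differences from WT were -2.62 and -2.71 (log2 CPM), against -4.73 and -4.55 for Slc7a2. Mtus1, beyond Pdgfrl, was at -1.09 and -1.14. Beside Cilp, Clpx differed by 0.07 and -0.04 and Parp16 by -0.95 and -0.77. Beside Greb1, E2f6 differed by 0.39 and 0.19 and Lpin1 by -0.93 and -1.001. Trib2, a pseudokinase gene 853.7 kb from Greb1, was at -1.90 and -2.34. Beside Cmklr1, Ficd was at 0.13 and -0.11, Sgsm1 was at -0.95 and -1.13, and Wscd2 had 0 counts in all 9 libraries. Of the genes overlapping the 4, Gm44305, Gm26584 and Gm15736 had 0 counts throughout, and the antisense gene Gm48140 within Greb1 was not analysed here. At most 2.03% of the short sequence words of any of the 4 (Slc7a2) also occur in transcripts of another gene.

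**Figure D4:**
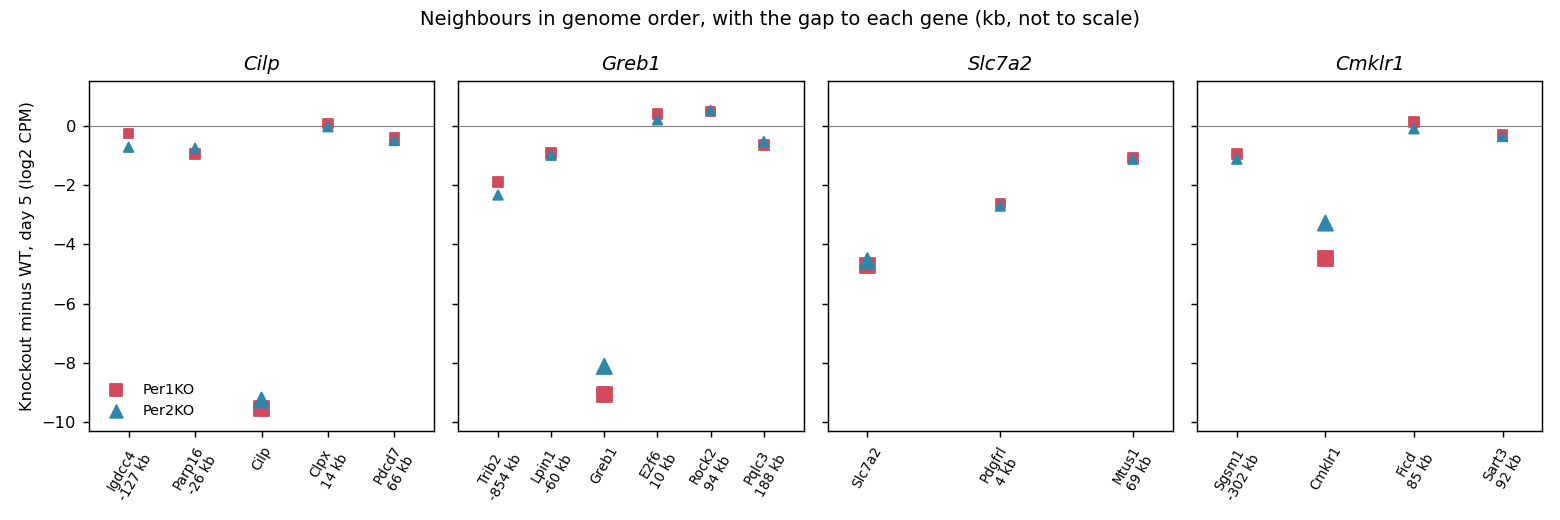
Knockout minus WT on day 5 (log2 CPM, prior count 2) for the 4 genes (large symbols) and the neighbours that passed the low-count filter, in genome order, with gaps in kb. Pdgfrl, at -2.62 and -2.71, is the neighbour with the lowest values, and Clpx and Ficd lie near 0.

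Genes that work with the 4 were taken from 4 lists and tested for each knockout against WT, with genotype and day as additive factors over the 9 libraries and the days standing in for replicates. In this fit, 9.26% of tested genes were called higher and 10.1% lower in Per1KO, and 9.31% and 10.6% in Per2KO. Of 19 tested genes of the TGF-beta, IGF and cartilage-type matrix list, 6 fell in both knockouts. These were Tgfb1, Tgfb2 and Tgfb3, the TGF-beta ligands, with Igf1, Bgn and Matn2. Igf1 fell by 3.80 ± 0.35 and 3.70 ± 0.34 on the log2 scale (SE; edgeR adjusted p = 0.000337 and 0.000338). Tgfb1 fell by 0.80 ± 0.14 and 0.96 ± 0.15 (edgeR adjusted p = 0.00794 and 0.00342). Smad2, a transducer of TGF-beta signals, rose in both, and Tgfbr1, a TGF-beta receptor, rose in Per1KO. The list's median was -0.75 and -0.66, beside -0.02 and -0.01 over all tested genes. A differing response to differentiation, tested as an interaction of knockout with days 3 and 5 against day 0, was called for 0.968% of tested genes (0.773% higher, 0.195% lower) and, in this list, for Dcn alone, which encodes the proteoglycan decorin, at 2.77 ± 0.37 (log2, SE; edgeR adjusted p = 0.0302). Tgfb2 was at -1.44 ± 0.27 and did not pass (edgeR adjusted p = 0.0599), but passed with DESeq2 (adjusted p = 0.000324), with no low-count filter (0.00267), without day 3 (0.0322) and without day 5 (0.0119). Igf1 kept both calls without each day in turn. Tgfb2 and Smad2 lost theirs in both knockouts without day 3 and without day 5. Tgfb1 lost its Per1KO call without day 3 and without day 5, and Tgfb3 without day 5. Bgn lost both calls without day 5, in Per1KO also without day 0 and in Per2KO also without day 3. Matn2 lost both without day 0 and without day 5. With only the 6 libraries of the genotypes compared, Smad2 (edgeR adjusted p = 0.0776 and 0.131) and Matn2 (0.0542 and 0.0901) lost both calls and Tgfb2 its Per2KO call (0.0616).

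Of 17 tested genes of the estrogen receptor list, Greb1l, the paralogue of Greb1, rose and Esr1, Gper1, Igfbp4 and Cxcl12 fell in both knockouts. Greb1l had 18, 4 and 6 counts in WT and 128 to 297 in the deeper knockout libraries, and these counts are not scaled for depth. Its log2 fold changes, which are scaled, were 1.47 ± 0.25 and 1.31 ± 0.25 (SE, edgeR adjusted p = 0.00595 and 0.00985). Greb1l did not pass without day 3 or without day 5. Esr1, the estrogen receptor alpha gene, had 7.63, 29.0 and 37.4 CPM in WT, 3.71, 12.7 and 11.5 CPM in Per1KO and 4.59, 14.6 and 16.1 CPM in Per2KO. Unlike Greb1, it was higher on days 3 and 5 than on day 0 in every population. The list's median was -0.16 and -0.03. No gene of this list was called in the interaction, where Cxcl12 was at 1.05 (log2) with all days and at 2.12 without day 5. Gper1, a membrane estrogen receptor gene, fell by 1.74 ± 0.19 and 1.85 ± 0.20 (SE; edgeR adjusted p = 0.000865 and 0.000679) and kept its calls without each day. Esr1 lost its Per2KO call without day 3 and without day 5, Igfbp4 lost both without day 5, and Cxcl12 lost both without day 5 and the Per2KO call also without day 0. With only the 6 libraries compared, Greb1l (edgeR adjusted p = 0.0663) and Cxcl12 (0.075) lost their Per2KO calls; with no low-count filter Cxcl12 lost both (0.0515 and 0.108).

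Of 18 tested genes of the SLC7 and arginine list, Slc7a7 fell in both knockouts, and Slc7a5, a carrier of large neutral amino acids, and Nos2, a nitric oxide synthase, fell in Per1KO. Slc7a7 fell by 1.87 ± 0.22 and 1.76 ± 0.22 (SE; edgeR adjusted p = 0.00121 and 0.00154). Slc7a1, the other main cationic carrier, was at -1.05 and -0.83 and did not pass; it passed in Per1KO with DESeq2 (adjusted p = 0.0302), and in both knockouts without day 0, at -1.40 and -1.52 (edgeR adjusted p = 0.0106 and 0.00804). Nos2 had at most 11 counts in WT. Slc7a5 did not pass in Per1KO with no low-count filter (edgeR adjusted p = 0.188), without day 3 or without day 5. Slc7a7 did not pass in Per2KO without day 3. In Per2KO, Slc7a5 passed with DESeq2 (adjusted p = 0.0183) and without day 0 (edgeR adjusted p = 0.00284). The list's median was -0.25 and -0.35. In the interaction, 1 gene of this list was called. Slc7a1 (-1.76, log2), Slc7a5 (-2.52), Slc3a2 (-1.79) and Odc1 (-1.21) did not pass there with edgeR but passed with DESeq2. Only 6 of 14 genes of the chemerin list were tested; Gnai2, a G protein subunit, fell in both knockouts, and C3ar1, a complement receptor gene, rose in Per1KO. Rarres2, which encodes chemerin, had 2, 6 and 0 counts in WT, not scaled for depth. In the deeper knockout libraries it had 4, 66 and 80 counts (Per1KO) and 1, 65 and 82 counts (Per2KO). Its log2 fold changes of 1.01 and 0.91 did not pass. None of the chemerin list's calls was kept when any 1 day was left out. Tgfbr1, Nos2, C3ar1 and Dcn fall outside the rule for named genes and were named after their values were seen.

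**Figure D5:**
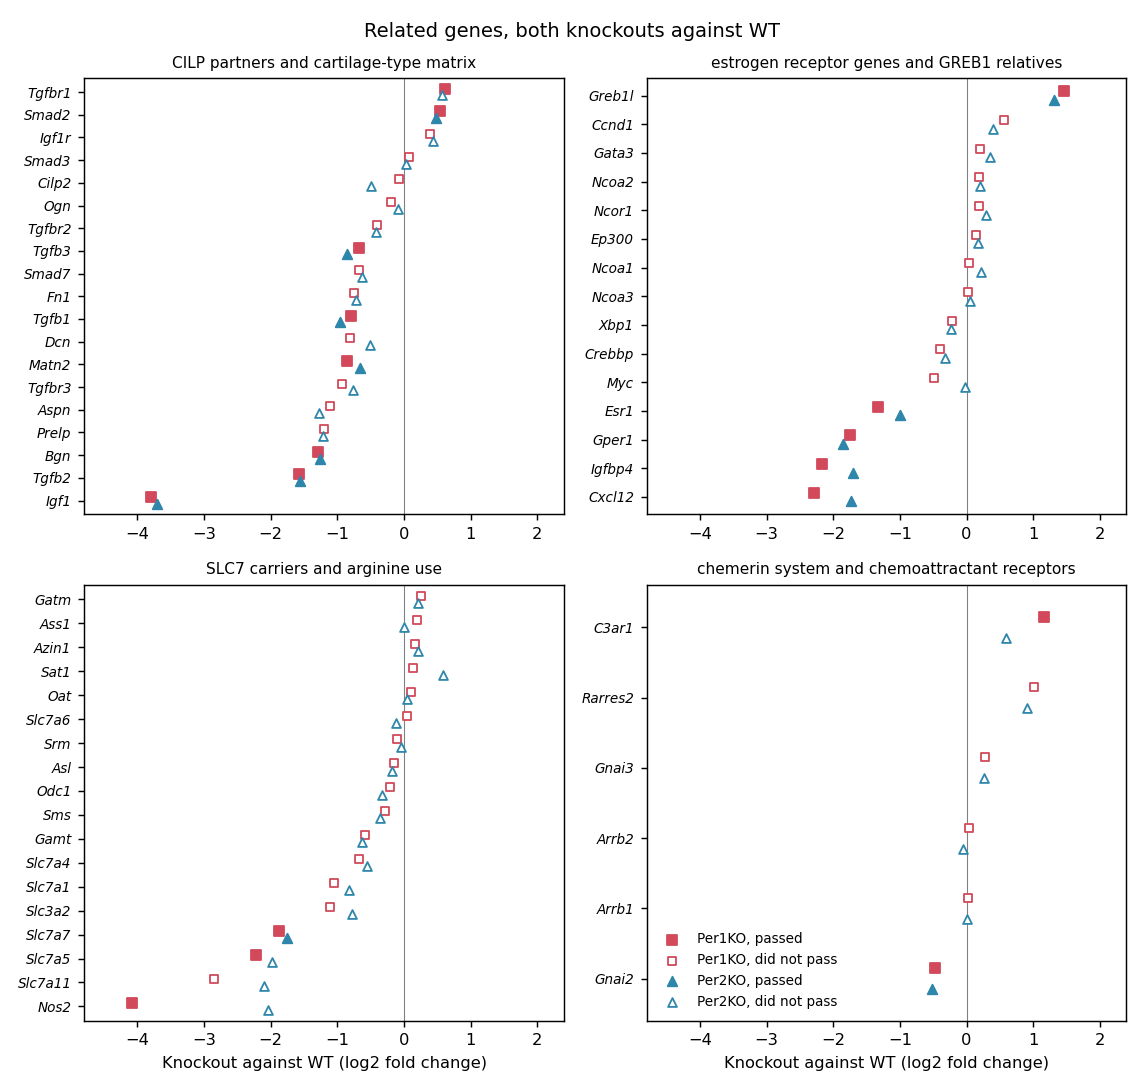
Log2 fold change against WT of tested genes of the 4 lists in Per1KO (squares) and Per2KO (triangles); filled symbols passed an edgeR adjusted p-value of 0.05. Igf1 lies at -3.80 and -3.70, and Greb1l at 1.47 and 1.31.

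Markers of other cell types were set beside these levels. The summed level of 7 fibroblast markers ran from 5506 to 17943 CPM in WT. It ran from 1842 to 6313 CPM in Per1KO and from 2039 to 5627 CPM in Per2KO. In both knockouts it was highest on day 3. Over all libraries it was highest in WT on day 5, where the 4 genes were highest. The summed level of the 10 myotube markers was also highest there, at 20284 CPM. Of the 7 fibroblast markers, 5 were detected in each library, and Thy1 and Tcf21 were at 0 in all. Dpt, the gene most like Cilp, is one of the 7, at 143 CPM in WT on day 5, so more abundant markers set most of that sum. The summed level of 5 smooth muscle markers went the other way on day 5. It was 1928 CPM in WT, 4518 CPM in Per1KO and 4089 CPM in Per2KO. The part of these markers in the results was not tested. Of 7 chondrocyte markers, 1 to 3 exceeded 3 counts in any library, and the macrophage list summed to 7.06 to 15.7 CPM with Adgre1 at 0 in all 9.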

How the data were processed

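Per the labels' protocols, polyadenylated RNA was made into TruSeq libraries and sequenced as single reads. Per the submitters' processing notes, CASAVA 1.8 and HISAT2 2.1.0 with build mm10 were used; the counting program, annotation and use of strand are not given in the sources used here. The authors deposited whole-number read counts for 47729 Ensembl genes, of which 47224 matched a symbol.

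Library sizes were scaled by TMM over the 13324 tested genes, and CPM was computed from these sizes, with exact Poisson 95% intervals. Log2 differences of single libraries used a prior count of 2. Tests were robust quasi-likelihood tests in edgeR 4.0.16 (R 4.3.3 and limma 3.58.1), with Benjamini-Hochberg adjustment at 0.05. They were first run on simulated counts that held no common effect of day. That run therefore does not check the use of days in place of replicates. DESeq2 1.42.0 was an alternative. With 1 population per genotype, p-values speak of these populations only. Positions are from GENCODE on GRCm38.

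The genes and lists were chosen with earlier results of these data known. Named were the 4 genes, the 5 most similar genes to each, direct partners, called list genes and neighbours; some called or partner genes appear only as counts or in figures, and a few are not reported here.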

Additional observations from a re-analysis of the deposited data

Results flagged for a closer look

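In 15 of 94 named genes examined, both WT differences from day 0 had 1 sign and all 4 knockout differences the opposite sign; any size counted, and the difference between populations was not tested. Of all 13324 tested genes, 1337 (10%) met this rule. Its form was settled with results in view, and 2 stricter forms had been run before it: with every difference at least 2-fold, 1 of the 94 met it (20 of all tested genes), and with every 95% counting interval excluding 1, a form tried after Greb1 was seen to miss the 2-fold one, 6 of the 94 did (283 of all). The values are WT day 5 minus day 0 in log2 CPM. Among the 4 genes this was Greb1, at 5.37. Of genes similar to Greb1, Cdhr1 was at 3.62, Ptpn5 at 3.45, Nrn1 at 1.88, Nkain1 at 1.61 and Ddx49 at 0.60; they were picked for that likeness. Neighbours Trib2 and Pdcd7 were at 0.98 and -0.078. Of the list genes, Slc3a2 was at 1.29, Smad7 at 0.96, Slc7a6 at 0.44, Odc1 at 0.083, Smad3 at -0.066, Ep300 at -0.10 and Igf1r at -0.68. These are single-library differences with no replicate check.

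The interaction of knockout with differentiation, tested with edgeR over all 9 libraries, passed for Dcn, which encodes the proteoglycan decorin, at 2.77 ± 0.37 (SE; adjusted p = 0.0302), and for Srm, spermidine synthase, at -1.59 ± 0.26 (SE; adjusted p = 0.0440). It was called for 129 of 13324 genes (0.968%). Srm was named after its value was seen. The fit used 1 response for both knockouts and took days 3 and 5 together. Days thus stood in for replicates, and WT on day 0 was 1 library. From day 0 to day 5, Dcn rose in log2 CPM by 3.55 in WT, 6.78 in Per1KO and 5.89 in Per2KO. Srm changed by -0.26 in WT, -1.83 in Per1KO and -1.86 in Per2KO. Neither gene was followed by name under the other settings.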

How the results depend on the processing

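No paired analysis was possible because the labels give no replicate numbers to pair on; libraries of the same day were matched by day as a factor in the genotype fits. The differences of the 4 genes between single libraries kept their direction under the other scalings and prior counts run. Between Per1KO and Per2KO, DESeq2 and no low-count filter each called 8 genes, and leaving out day 0 called 48; the sign changes of the 4 genes were -0.30 (Cilp) and -0.20 (Slc7a2) without day 3, 0.13 (Cmklr1) without day 5, and 0.021 and 0.18 (Greb1) without day 0 and day 5.

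Against WT, Per1KO calls went from 2575 to 1391 with only the 6 libraries compared, 989 without day 3 and 780 without day 5; Per2KO calls went from 2652 to 1263, 901 and 855. Of the matrix list, 8 calls in Per1KO became 5, 5 and 1 under those settings, and 7 in Per2KO became 4 with 6 libraries and 3 without day 5. Of the estrogen list, 5 calls in Per2KO became 3, 3 and 1, and 5 in Per1KO became 2 without day 5. Of the SLC7 list, 3 calls in Per1KO became 6 with DESeq2, 7 without day 0 and 1 without day 3; 1 in Per2KO became 3, 9 and 0, and 2 without day 5. Of the chemerin list, 2 calls in Per1KO became 1 with no filter, and 1 in Per2KO became 0; both became 0 with 6 libraries and without any 1 day.

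Interaction calls went from 129 to 858 with DESeq2, 544 with no filter, 513 without day 3 and 1797 without day 5. By list these were 5, 4, 6 and 7 (matrix), 7, 3, 7 and 3 (SLC7), and 2 with DESeq2, 1 with no filter and 5 without day 5 (estrogen); the chemerin list had 1 without day 5. Signs changed for Cilp2 in Per1KO (0.084) without day 0, for Odc1 (0.20 and 0.051) without day 3 and for Rarres2 (-0.10 and -0.36) without day 5; in the interaction for Matn2 (-0.15) and Gper1 (-0.21) without day 3 and Bgn (0.43) and Slc7a7 (-0.13) without day 5. A threshold of 4 times in place of 8, for both the rise and the knockout difference, raised the 34 genes of the pattern to 113. The 5 most similar genes changed with the measure or scale for each of the 4. The causes of these changes were not tested. The fits that leave libraries out also differ from the main fit in their number of libraries. The floor of 3 counts used for a count of 0 is at most 0.660 CPM in WT and 0.0731 CPM in the knockouts; exact 95% upper limits are higher.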
